A study of Homo sapiens with 2 samples.

Results

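The genes described here are those that the fusion EWSR1-FLI1 is known to hold down in Ewing sarcoma cells, together with genes of the mesenchymal extracellular matrix. A list of 45 such genes was matched by symbol to the probes of an Illumina expression BeadChip, and all 45 had a probe. Of these, 27 were kept as detected, and the same rule kept 10189 genes in all. It asks that the brightest probe of a gene has a detection p-value under 0.01 in wild type or adapted cells. The cells were SK-ES1, an established line of Ewing sarcoma, a bone and soft tissue tumour, with the EWSR1-FLI1 fusion. One group was the wild type line and the other a radiation-adapted derivative of it, whose description carries 4 Gy, and the labels do not say how this radiation was given. Each group held 1 array. The labels do not say how many cultures or clones the adapted cells represent. The values therefore have no replicate check, no test was made, and a ratio describes these 2 RNA samples.

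EWSR1-FLI1 joins the activation domain of EWSR1 to the DNA-binding domain of the ETS factor FLI1. It activates genes near repeats of the motif GGAA and lowers others, in part through corepressor complexes with histone deacetylases and the demethylase KDM1A. Cells with less of the fusion are known to turn towards a mesenchymal state, with actin fibres, focal adhesions and secreted matrix. The matrix consists of collagens and glycoproteins, which lysyl oxidases crosslink, metalloproteases cut and TIMP proteins protect from cutting.

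Both arrays had similar raw signals, with medians of 137 for wild type and 139.3 for adapted cells, and 9740 and 9593 detected genes. All 11 Ewing sarcoma markers with a probe were detected on both arrays, among them CD99, NKX2-2 and PRKCB, as the label of the line implies. The signals given below are background-corrected, quantile-normalized and on a linear scale in arbitrary units that include an offset of 16, which makes the folds of dim genes smaller. Ratios are adapted over wild type. The number of arrays limits the precision. Where a gene had 2 or more detected probes, the difference between the log2 ratios of its 2 brightest had an SD of 0.466 (2567 genes). Beside the detection p-values, this is the only measure of spread at hand. It covers differences between probes of a gene, which share both arrays, and not those between cultures or arrays.

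The listed genes were mostly somewhat higher in the radiation-adapted cells, with small differences. Of 27 detected genes, 23 had a log2 ratio above 0, against 46.6% of all detected genes. The median log2 ratio was 0.26, against -0.04 over all detected genes. At 2-fold or more, 3 genes were higher (4.02% of all detected genes were) and 0 were lower (2.07%). At 1.5-fold or more, 9 were higher (12.5%) and 0 lower (9.59%). The members were chosen with earlier results of these data known, so these shares are a description only. The 3 genes past 2-fold were FSTL1, DKK1 and COL1A2. Just short of it were COL5A1, CCN2 and TNC.

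The filter on detection shaped some of these values. DKK1 passed it through the adapted array alone, where it was higher, and CCN1 through the wild type array alone, where it was higher. Over the 25 genes detected on both arrays, 22 were above 0 (46.9% of all such genes were), 2 were at least 2-fold higher (2.77%), and the median was again 0.26. With DKK1 and CCN1 at their bounds, 2 of the 27 were at least 2-fold higher (2.93% of all detected genes at theirs). With no filter, 35 of 45 genes were above 0, against 48.6% of all genes, and the median was 0.15. The 18 genes not detected had signals between 20.0 and 42.9, close to the offset, and 12 of them were above 0. The plot of signals by array shows the 27 detected genes by role.

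**Figure D1:**
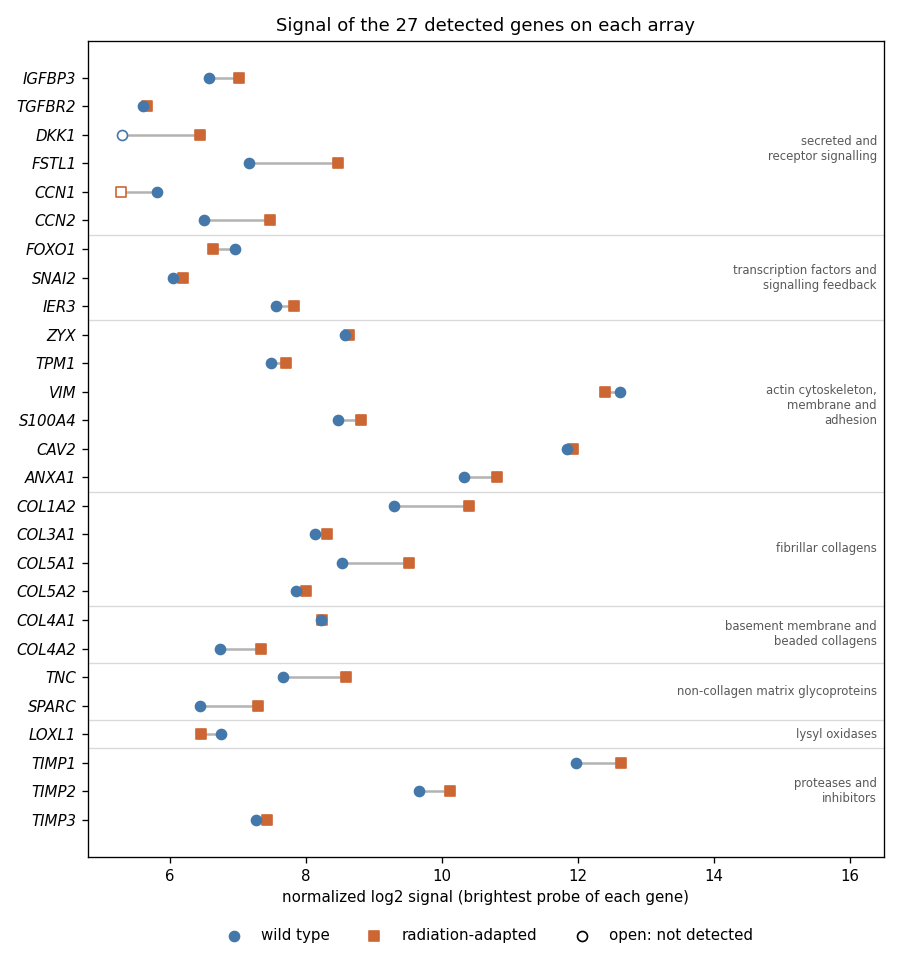
Normalized log2 signal (x axis) of the 27 detected genes (rows, grouped by role) on the wild type array (blue circles) and the radiation-adapted array (orange squares), with open symbols where a gene was not detected. The adapted square lies to the right of the wild type circle for 23 genes, with the widest gaps for FSTL1, DKK1 and COL1A2.

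Secreted regulators and receptors held FSTL1 and DKK1, both past 2-fold by measured ratio. All 6 genes of this group were detected, 5 were above 0, and their median log2 ratio was 0.71. FSTL1, a secreted glycoprotein that binds ligands of the TGF-beta family, had a signal of 143 in wild type and 357 in adapted cells, 2.49-fold higher. DKK1, a secreted antagonist of WNT signalling, had a signal of 39.5 in wild type cells, where it was not detected (detection p of 0.0195), and 87.5 in adapted cells. It was thus at least 1.86-fold higher, taken against the lowest detected signal of the wild type array (46.9), and this bound has no allowance for measurement error. Both were higher in the adapted cells, and FSTL1 was so with both signals clear of the background.

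CCN2, a matricellular protein known as a target of TGF-beta and of the YAP coactivator, had a signal of 91.0 in wild type and 178.5 in adapted cells, 1.96-fold higher. A further probe of CCN2 gave nearly the same ratio, 1.97-fold. Its close relative CCN1 went the other way: the signal was 56.2 in wild type and 38.8 in adapted cells, where it was not detected, so that CCN1 was at least 1.12-fold lower. CCN1 was dim on both arrays. IGFBP3, which binds insulin-like growth factors and is a well-known gene repressed by the fusion, had a signal of 95.9 in wild type and 130.0 in adapted cells, 1.36-fold higher. A further IGFBP3 probe was at 41.1 in wild type cells, where it was not detected, and at 99.0 in adapted cells, so both probes were higher in adapted cells. TGFBR2, the type II receptor of TGF-beta and another gene repressed by the fusion, was at 48.8 and 50.8, a log2 ratio of 0.06.

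TGFBR2 was also the gene nearest to the limit of detection, with p-values of 0.00779 in wild type and 0.00909 in adapted cells. Just outside the limit were COL1A1 at 0.0169 and TGFBI, PHLDA1 and COL6A2 at 0.0195, each on the adapted array.

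The promoters of DKK1 and CCN2 are shown because these genes were among the highest of the group and their sequences hold short motifs of factors tied to this program. Each is the 250 bases before the gene's start in RefSeq (GRCh38.p14), written 5′ to 3′ on the gene's strand. DKK1 is at chr10:52314031-52314280 on the plus strand and CCN2 at chr6:131951373-131951622 on the minus strand. Capitals mark, on either strand, CATTCC (the motif of TEAD factors, partners of YAP), CCGGAA (a core of ETS factors, to which FLI1 belongs) and CAGAC (a SMAD core, of TGF-beta signalling).
DKK1: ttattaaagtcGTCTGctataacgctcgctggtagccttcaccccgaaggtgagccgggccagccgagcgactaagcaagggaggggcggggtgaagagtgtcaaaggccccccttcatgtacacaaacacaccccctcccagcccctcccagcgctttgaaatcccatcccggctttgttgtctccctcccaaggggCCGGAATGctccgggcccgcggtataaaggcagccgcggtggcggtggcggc
CCN2: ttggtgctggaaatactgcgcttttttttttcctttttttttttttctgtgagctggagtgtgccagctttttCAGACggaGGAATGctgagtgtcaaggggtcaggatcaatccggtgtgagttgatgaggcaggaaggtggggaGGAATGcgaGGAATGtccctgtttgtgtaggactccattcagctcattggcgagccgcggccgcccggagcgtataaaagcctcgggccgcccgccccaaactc
CCN2 held 3 copies of CATTCC, at 169, 104 and 95 bases before the start, and CAGAC at 177. In DKK1 a CCGGAA at 52 bases overlapped a CATTCC at 50, both within one run of capitals, and CAGAC lay at 239. The promoter of FSTL1, the gene with the highest ratio of the group, held none of these motifs.

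Promoters were found for 20 of the 27 detected genes and for 8241 of all detected genes, among 35116 promoters in the table. CATTCC was in 3 of the 20, in 9.21% of the promoters of detected genes and in 11.9% of all promoters. CCGGAA was in 4 of the 20, in 26.4% and in 14.5%, and CAGAC in 8, in 35.5% and in 38.0%. TGANTCA, the motif of AP-1, was in 0 of the 20, in 3.53% and in 6.57%, and the CArG box, bound by SRF, in 0, in 0.971% and in 1.16%. A match is a string of letters, not a shown binding site.

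Transcription factors and signalling feedback genes lay close to 0. Of 5 genes, 3 were detected, with a median log2 ratio of 0.15. FOXO1, a forkhead factor that restrains growth and is repressed by the fusion, had a signal of 124 in wild type and 99.8 in adapted cells, 1.24-fold lower. SNAI2, a repressor of E-cadherin that marks mesenchymal cells, was at 66.1 and 73.4, a log2 ratio of 0.15. A further SNAI2 probe was at 41.5, not detected, and 65.0. IER3, an early response gene of survival signalling, was at 189 and 227, a log2 ratio of 0.26. PHLDA1, a pleckstrin homology protein, and SPRY1, a feedback inhibitor of receptor tyrosine kinases, were not detected, with signals of 38.3 and 38.0 in wild type and 40.2 and 35.9 in adapted cells. NNMT, a methyltransferase of nicotinamide, was not detected either, with 20.9 and 23.0.

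Genes of the actin cytoskeleton, the membrane and adhesion differed little, and they include some of the brightest signals. Of 8 genes, 6 were detected, 5 were above 0 and the median log2 ratio was 0.15, with 0 genes at 1.5-fold. VIM, the intermediate filament protein of mesenchymal cells, had a signal of 6293 in wild type and 5390 in adapted cells, 1.17-fold lower, and its further probe was also lower (-0.11). ANXA1, a calcium-dependent membrane-binding protein, was at 1286 and 1792, 1.39-fold higher. S100A4, a calcium-binding protein linked to motility, was at 354.5 and 449, and its 2 probes had log2 ratios of 0.34 and 0.30.

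Zyxin (ZYX), a focal adhesion protein, was at 383 and 397, a log2 ratio of 0.05, while its further probe had 0.54. TPM1, a tropomyosin that stabilises actin filaments, was at 180.5 and 209, with 2 probes at 0.21 and 0.33. CAV2, a caveolin, was at 3669 and 3918, a log2 ratio of 0.09, but its other probes had -0.15 and -0.20, so its direction was not settled. TAGLN, an actin-binding protein of smooth muscle, and CD44, the hyaluronan receptor, were not detected, with signals of 20.7 and 22.0 in wild type and 29.3 and 24.5 in adapted cells. VIM and CAV2 were thus high in both lines and TAGLN and CD44 below detection in both.

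**Figure D2:**
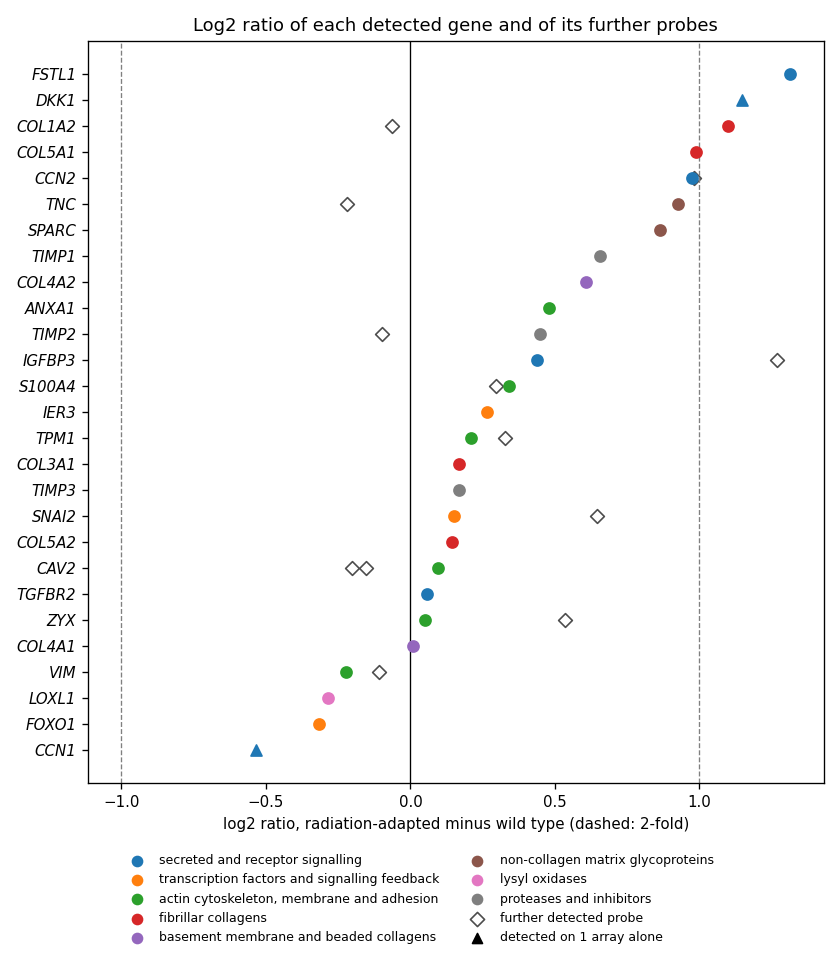
Log2 ratio of adapted minus wild type cells (x axis) for the brightest probe of each detected gene (filled, coloured by role, triangles where the gene was detected on 1 array alone) and for its further detected probes (open diamonds), ordered by ratio, with dashed lines at 2-fold. The 4 genes left of 0 are VIM, LOXL1, FOXO1 and CCN1, and COL1A2, TNC, TIMP2 and CAV2 have a further probe on the other side of 0.

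Fibrillar collagens, the main fibres of connective tissue, were all above 0 where detected, but not to the same extent. Of 5 genes, 4 were detected, and the median log2 ratio was 0.58. COL1A2, which encodes the alpha 2 chain of type I collagen, had a signal of 630.1 in wild type and 1349 in adapted cells, 2.14-fold higher. A further COL1A2 probe, also detected on both arrays, was at 371 and 355.0, a log2 ratio of -0.06. The 2 probes of this gene thus differed by more than the SD between probes, and the 2-fold value rests on 1 of them.

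COL5A1, a chain of type V collagen, which regulates the width of type I fibrils, was at 370 and 735, 1.98-fold higher. COL5A2, the other chain of the same collagen, was at 232 and 257, 1.11-fold higher. COL3A1, of type III collagen, was at 283 and 318, 1.12-fold higher. COL3A1 and COL5A2 are neighbours in the genome and had nearly equal log2 ratios of 0.17 and 0.14. COL1A1, the partner chain of COL1A2, was not detected, at 24.1 in wild type and 42.9 in adapted cells, and no fold is given for it.

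Type IV collagen, the network of basement membranes, differed between its paired genes. COL4A1 was at 301 and 303 (log2 ratio 0.01) and COL4A2 at 107 and 162.5, 1.53-fold higher. Each ratio rested on 1 probe, while 2 probes of the same gene differed with an SD of 0.466. Without background correction the log2 ratios were 0.01 and 0.33. The genes lie head to head and share a promoter, shown here because their measured ratios were not alike. The 126 bases between their starts are at chr13:110307158-110307283 (GRCh38.p14) and are written on the plus strand, the strand of COL4A2.
COL4A1-COL4A2: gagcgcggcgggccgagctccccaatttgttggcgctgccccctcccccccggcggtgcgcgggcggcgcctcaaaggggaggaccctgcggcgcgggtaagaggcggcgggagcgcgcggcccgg
None of the motifs searched was found in it, and 80.2% of its bases were G or C. The beaded collagen genes COL6A1, COL6A2 and COL6A3 were not detected, with signals from 23.7 to 32.5 in wild type and from 33.6 to 41.8 in adapted cells.

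Among matrix glycoproteins, 2 of 6 genes were detected and both were higher, with a median log2 ratio of 0.89. TNC, which encodes tenascin C, an anti-adhesive protein of remodelled matrix, had a signal of 203 in wild type and 386.5 in adapted cells, 1.90-fold higher. Its further probe was at 103 and 88.9, a log2 ratio of -0.22, so the probes of TNC disagreed in direction. SPARC, a collagen-binding protein, was at 86.9 and 158, 1.82-fold higher, by a single probe. Fibronectin (FN1), thrombospondin 1 (THBS1), TGFBI and periostin (POSTN), which are abundant products of fibroblasts, were not detected. Their signals ran from 21.1 to 27.4 in wild type and from 22.8 to 41.4 in adapted cells.

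The TNC promoter is shown because, of the 20 promoters found, only it and that of TIMP1 held GGAAGGAA, a pair of the GGAA units whose longer repeats the fusion binds. This motif was in 2.83% of the promoters of detected genes and in 3.06% of all promoters. The sequence is the 250 bases before the start, chr9:115118158-115118407 (GRCh38.p14) on the minus strand, written 5′ to 3′ on the gene's strand. Capitals mark the GGAAGGAA, read here on the opposite strand at 178 bases before the start, and a CAGAC at 70.
TNC: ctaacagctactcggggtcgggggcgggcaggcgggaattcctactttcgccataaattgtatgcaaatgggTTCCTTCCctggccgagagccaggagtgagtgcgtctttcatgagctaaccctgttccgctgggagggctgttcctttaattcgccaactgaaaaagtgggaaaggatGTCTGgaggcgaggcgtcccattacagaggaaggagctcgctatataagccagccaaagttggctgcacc

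Of the lysyl oxidases, which crosslink collagen and elastin, LOXL1 alone was detected, at 108 in wild type and 88.5 in adapted cells, 1.22-fold lower. LOX, a gene repressed by the fusion, had 32.4 and 23.5, and LOXL2 had 21.8 and 20.0, all without detection.

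The 3 listed inhibitors of metalloproteases were above 0 and the 3 listed proteases were not detected. Of the MMP, ADAM and ADAMTS genes outside the listed ones, most were not detected either, and ADAM19 was detected in adapted cells alone. Those detected on both arrays had log2 ratios of 0.82 for MMP11, 0.66 for ADAM15, 0.22 for ADAMTS1, -0.09 for ADAM17 and -0.24 for ADAM10. TIMP1 had a signal of 4021 in wild type and 6342 in adapted cells, 1.58-fold higher. TIMP2 was at 815 and 1113, 1.37-fold higher, but its further and dimmer probe had a log2 ratio of -0.10. TIMP3 was at 154 and 173, 1.12-fold higher. The gelatinase MMP2, the membrane protease MMP14 that activates it, and PLAU, the urokinase that makes plasmin, had signals from 26.4 to 38.4 in wild type and from 24.9 to 30.9 in adapted cells.

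Further probes thus had the same direction for some of these genes and not for others. Of 11 genes with more than 1 detected probe, 7 had all probes on the same side of 0 and 4 did not (COL1A2, TNC, TIMP2 and CAV2). The other 16 genes rested on 1 detected probe. Of the 3 genes past 2-fold, none had a second detected probe that was also past 2-fold. Probes of a gene share both arrays and are not replicates.

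**Figure D3:**
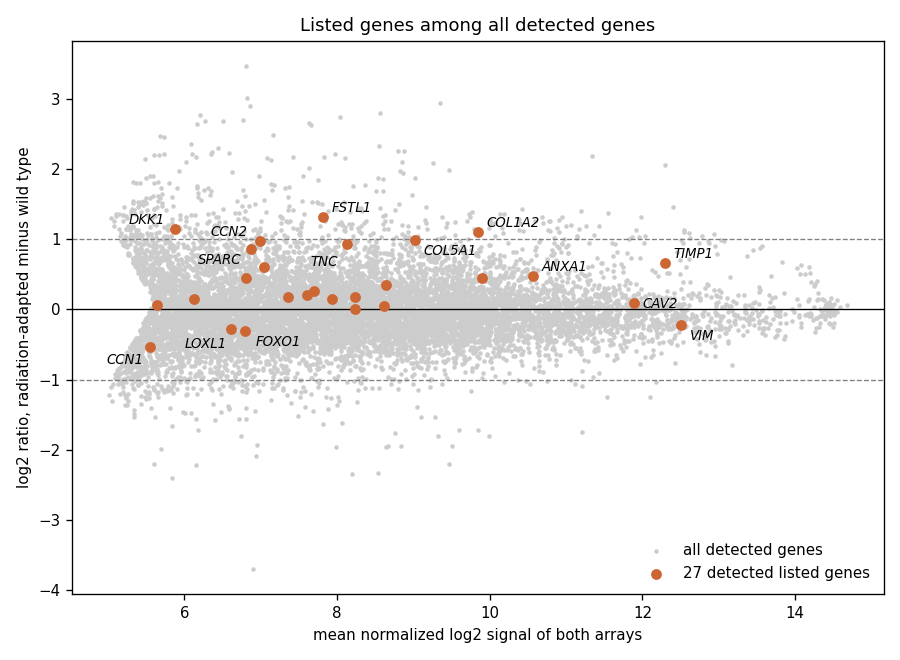
Log2 ratio of adapted minus wild type cells (y axis) against the mean normalized log2 signal of both arrays (x axis) for all 10189 detected genes (grey) and the 27 listed ones (orange), with dashed lines at 2-fold. The listed genes lie mostly above 0 and within the grey cloud, and FSTL1, DKK1 and COL1A2 lie above the upper line.

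Position in the genome was set beside these ratios. For each listed gene, the median log2 ratio of 20 nearby genes was computed, 10 on each side, all protein-coding and detected in both lines. These medians ran from -0.30 around CCN1 to 0.41 around S100A4. For S100A4 the neighbours were higher than the gene itself (0.34). Around FSTL1, COL5A1, COL1A2 and DKK1 the neighbours had 0.16, 0.22, -0.12 and 0.00. The part of position in the ratios was not tested.

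Other genes of the same pathways, in 8 lists, did not share one direction. Counts at 2-fold or more are read against 4.02% higher and 2.07% lower over all detected genes. Enzymes that process collagen had a median log2 ratio of -0.29 over 16 detected genes of 21, with 6 above 0, 2 at least 2-fold higher by measured ratio and 0 lower. FKBP14, a prolyl isomerase of the endoplasmic reticulum, was 2.41-fold higher by its brightest probe, and its other detected probe was also above 0. BMP1, which cuts the C-terminal propeptide of collagen, was at least 1.61-fold higher. PLOD2, a lysyl hydroxylase, was at 775 and 407, 1.91-fold lower, and PCOLCE, which enhances the cutting of procollagen, at 2071 and 1243.5, 1.67-fold lower. PLOD2 and PCOLCE, the lowest of this list, were chosen after their values were seen.

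Of 29 other collagen chains, 5 were detected and their median was -0.20, and COL7A1, which forms anchoring fibrils of skin, was 2.13-fold lower. Other matrix glycoproteins and proteoglycans had a median of -0.16 over 20 of 40 genes, with 9 above 0, 2 at least 2-fold higher and 1 lower by measured ratio. These 3 were each detected on 1 array alone: ECM1 was at least 1.85-fold higher, MATN2 at least 1.72-fold higher and LTBP2, of the latent TGF-beta binding family, at least 1.16-fold lower. Other crosslinkers, proteases and inhibitors had a median of 0.25 over 13 of 35 genes, with 8 above 0 and 1 at least 2-fold higher as measured. This was the metalloprotease ADAM19, which was not detected in wild type cells and was at least 1.93-fold higher.

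Contractile genes and genes that respond to SRF, MRTF and YAP had a median of 0.07 over 21 of 31 genes, 13 of them above 0 and 2 at least 2-fold higher. ACTG2, a smooth muscle actin, had a signal of 98.9 in wild type and 401 in adapted cells, 4.05-fold higher by 1 probe. Actin genes are alike in sequence, so this value is uncertain. CALD1, which encodes the actin-binding caldesmon, was at 183 and 402, 2.19-fold higher, with 2 of its 3 detected probes above 0. Ligands, receptors and SMADs of TGF-beta had a median of 0.17 over 14 of 21 genes, 8 of them above 0. ENG, the coreceptor endoglin, was at 266 and 706, 2.66-fold higher, and was the 1 gene of this list past 2-fold.

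Mesenchymal transcription factors and cadherins had a median of -0.17 over 6 of 14 genes, with 3 above 0 and 0 at 2-fold. The largest differences were those of TCF12 (-0.55) and TCF4 (-0.42). The list of the fusion's partners, its corepressors and genes tied to it, NKX2-2 among them, had a median of -0.28 over 9 detected genes of 14. Of these, 1 was above 0 (FLI1) and 0 were at 2-fold. EWSR1 was at 2273 and 1899, 1.20-fold lower, with all 3 of its probes below 0. FLI1 was at 181 and 268, 1.48-fold higher, by 1 probe. The annotation does not give the probe's place in FLI1, so whether it measured the fusion transcript was not tested. NKX2-2, a target that the fusion activates, was at 5310 and 3312, 1.60-fold lower. Of the 11 Ewing sarcoma markers with a probe, NKX2-2 among them, 9 were above 0, and their median log2 ratio was 0.40. Among these, STEAP1 was at 0.53, LIPI at 0.50 and CCND1 at 0.48.

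**Figure D4:**
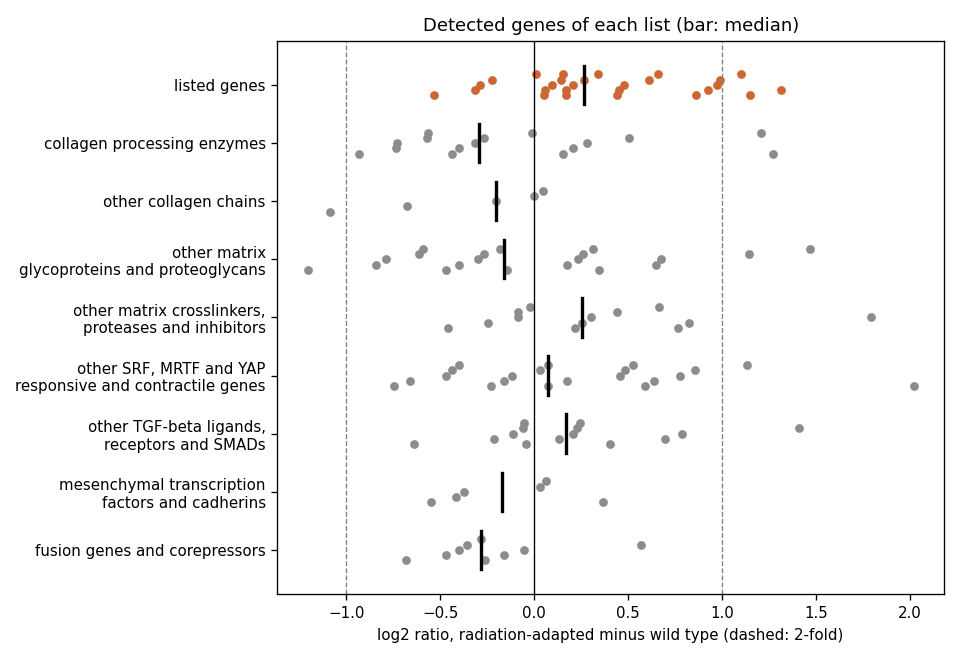
Log2 ratio of adapted minus wild type cells (x axis) for the detected genes (points) of the listed set (orange) and of the 8 other lists (grey), with a bar at each median and dashed lines at 2-fold. The listed genes have a median of 0.26, and collagen processing enzymes have the lowest median, -0.29.

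Markers of other cell types were set beside these values, since many of the listed genes are typical of fibroblasts. Of 12 fibroblast markers, 7 were detected, with 5 above 0 and a median of 0.17, and COL3A1 is also one of the listed genes. THY1 was 1.68-fold higher in adapted cells and DCN 1.51-fold lower, while LUM, PDGFRA, PDPN, MFAP5 and DPT were not detected in either line. The summed signal of the 12 markers was 4461 in wild type and 4929 in adapted cells. Of 10 endothelial markers, ENG and EMCN (-0.01) were detected, and the summed signal of the 10 was 591 in wild type and 997 in adapted cells. The rise in this sum lay in ENG, at 266 and 706, and 8 of the 10 were not detected. Of 9 leukocyte markers with a probe 3 were detected, and the sum of the 9 was 525 and 700.1. The rise in the leukocyte sum lay in CD68, at 242 and 450, 1.86-fold higher, with 1 of its 2 detected probes above 0. CORO1A was at least 1.43-fold lower and LYZ at least 1.11-fold lower, while PTPRC was not detected. Of 10 epithelial markers, EPCAM and MUC1 were detected, with a sum of 379 and 365 over the list, and of 8 skeletal muscle markers TNNT1 was, with 579.6 and 541. In such bulk RNA, more cells of a type and more RNA per cell cannot be told apart, and the part of other cells in the ratios was not tested.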

How the data were processed

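Per the labels' protocols, total RNA was extracted with Trizol, and biotin-labelled cRNA was made with the Illumina TotalPrep kit. The authors deposited, per the file headers, an average signal intensity for each of 47323 probes on each array, neither background-subtracted nor normalized, and a detection p-value for each probe. For the scanner and its software, the sources used here give no name. The authors also deposited processed intensities without saying how they were made. Both columns had a median of 10.6, and each kept the order of its own array's raw signals (Spearman correlation 1.00), so the table was read as linear, background-subtracted and quantile-normalized, and served as an alternative only.

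Raw signals were normalized in R 4.3.3 with limma 3.58.1 (neqc: normexp background correction from the detection p-values, an offset of 16, quantile normalization, log2). Later steps used Python 3.11.15, pandas 2.3.3, NumPy 2.4.6 and matplotlib 3.10.9. Probe names came from GEO's platform annotation (30113 probes with 1 gene symbol, 8 with several, and 17202 left unnamed here), updated through a RefSeq table of GRCh38.p14. Promoters came from RefSeq, GRCh38.p14. The probe with the highest mean log2 signal stood for its gene. For a gene detected on 1 array, the fold is a bound ("at least"): the detected signal was divided by the larger of the undetected signal and the lowest signal detected on that other array. The steps were tested on simulated arrays.

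The members, the lists and the fold of 2 were chosen with earlier results of these data known. Named genes were all detected members and, from each other list, up to 4 genes at 2-fold or more or otherwise the 2 largest, with FLI1 and EWSR1. PLOD2, PCOLCE and the named markers STEAP1, LIPI, CCND1, CD68, CORO1A, LYZ, THY1, DCN, EPCAM, MUC1, EMCN and TNNT1 are exceptions to this rule, picked with their values known. MMP11, ADAM15, ADAMTS1, ADAM17 and ADAM10 are further exceptions of this kind. Samples were grouped by title. The alternatives were no background correction, median scaling, an offset of 50, the authors' processed values and other detection filters. Further ones were a fold of 1.5, bounds in place of ratios, and the median of the detected probes of a gene.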

Additional observations from a re-analysis of the deposited data

How the results depend on the processing

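Of the 27 detected genes, 26 kept the sign of their log2 ratio in each of the 9 settings that held them (DKK1 and CCN1 drop out where detection on both arrays is asked for), the exception being CAV2, which was below 0 with the median of its probes. Settings that change only the detection filter leave the ratio of a gene as it was. All settings use the same 2 arrays, so kept signs are no replicate check. The count of genes at 2-fold or more depended on the settings. It was 3 as reported, 0 without background correction, 2 with an offset of 50, 4 with median scaling and 5 with the authors' processed values, while 9 passed 1.5-fold. The count of genes lower was 0 in each of these settings. Over all detected genes, the 2-fold counts were 410 higher and 211 lower as reported, 108 and 28 without background correction, 213 and 70 with an offset of 50, 439 and 188 with median scaling, 633 and 464 with the authors' processed values, and 253 and 125 over genes detected on both arrays. The median of the listed genes was 0.17 without background correction and 0.15 with no detection filter, an alternative chosen after seeing the data. The median of secreted regulators and receptors was 0.31 without background correction and 0.91 with the median of probes. For fibrillar collagens it was 0.83 at a detection p under 0.05 and with no filter, both of which add COL1A1, and 0.34 with the median of probes. For proteases and inhibitors it was 0.18 with the median of probes and 0.12 with no filter. With no filter, the medians were -0.17 for collagen processing enzymes, -0.11 for other collagen chains, 0.14 for other crosslinkers and proteases and 0.051 for TGF-beta ligands, receptors and SMADs, and that of mesenchymal transcription factors and cadherins turned to 0.045, since that setting adds genes near background. Among single genes, DKK1 was at 0.40 without background correction, and COL1A2 and TNC were at 0.52 and 0.35 with the median of probes. Genes with signals near the detection limit, such as TGFBR2, DKK1 and CCN1, are the least certain. No paired analysis was possible because each group held 1 array.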
